A study of Homo sapiens with 6 samples.

Results

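The Hippo pathway and its transcriptional output were examined in RNA-seq libraries of cells that carry the label Huh7, the name of a hepatocellular carcinoma line, as a set of 44 genes out of 60623 in the deposited table. The set holds 23 genes of the pathway itself and 21 genes commonly used as targets of its effectors YAP and TAZ. Its rows were found by gene symbol, each symbol matched 1 row, and the rule used no measured value, although the set was proposed with earlier results of these data known. The knockdown group had 3 libraries with the genotype SRSF10 knockdown, made, going by the series title, with a short hairpin RNA, and the control group had 3 libraries with the genotype WT and titles beginning with NC. No label names a control hairpin, so effects of delivering a hairpin and effects of losing SRSF10, an SR-family splicing factor, cannot be told apart. Nothing says that the libraries of a group came from separate cultures, so p-values reflect the spread between these libraries alone, and that spread may be technical.

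The Hippo pathway is a kinase cascade that limits tissue growth and sets liver size. Upstream proteins at the membrane and at cell junctions, such as NF2 and the KIBRA-family proteins, promote activation of the kinases MST1 and MST2 (genes STK4 and STK3), which with the adaptor SAV1 phosphorylate LATS1, LATS2 and their cofactors MOB1A and MOB1B. The LATS kinases phosphorylate the coactivators YAP (YAP1) and TAZ (WWTR1) and so keep them out of the nucleus, where they would otherwise bind the TEAD transcription factors and switch on targets such as CCN1, CCN2 and ANKRD1. Much of this control acts on phosphorylation and location of proteins, which mRNA levels do not measure.

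Levels are FPKM, fragments scaled by the length of a gene and the size of a library, so they can be set side by side between genes. SRSF10 was at 10.6, 10.8 and 10.6 FPKM in knockdown libraries, against 18.6, 19.5 and 19.8 FPKM in controls, with no overlap. Its mean was 10.7 ± 0.12 FPKM in the knockdown and 19.3 ± 0.61 FPKM in controls (SD, n = 3 each), 44.8% lower in the knockdown, with an exact two-sided permutation p of 0.1, the smallest that 3 against 3 allows. Depth estimated from low values was 12770000 to 14000000 fragments in knockdown libraries and 12710000 to 14380000 in controls. Several liver markers were scarce in cells labelled Huh7: of 12 hepatocyte and hepatoma markers, 8 were under 1 FPKM in every library, APOA2 and TTR were listed at 0, AFP was under 1 FPKM, and ALB was at 0.434 to 0.814 FPKM in the knockdown and 0.115 to 0.172 FPKM in controls. These levels go against the labelled liver origin, and the identity of the line was not tested. The summed hepatocyte markers were at 26.7 to 27.3 FPKM in the knockdown and 26.1 to 26.3 FPKM in controls, and 5 epithelial markers, led by KRT8, were at 675 to 733 FPKM in the knockdown and 707 to 745 FPKM in controls. The 6 mesenchymal markers were each under 1 FPKM, with sums of 1.27 to 1.37 FPKM in the knockdown and 0.732 to 0.785 FPKM in controls, and the 3 endothelial markers summed to 6.28 to 7.33 FPKM in the knockdown and 4.62 to 5.81 FPKM in controls, nearly all of it PECAM1. The 3 leukocyte markers were each under 1 FPKM. The part of these differences in the results was not tested, and in bulk RNA fewer cells of a type and less RNA per cell cannot be told apart.

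Among all tested genes, many differed between knockdown and control libraries, mostly by small amounts. Of 12191 genes with at least 1 FPKM in at least 3 libraries, 1542 were higher and 1525 lower in the knockdown, 25.2% in all (12.6% higher and 12.5% lower; limma on log2(FPKM + 1), Benjamini-Hochberg adjusted p under 0.05). Leaving out knockdown replicate 1, 2 and 3 in turn gave 952, 943 and 894 higher and 1015, 982 and 964 lower genes. The median log2 fold change of all tested genes was -0.010 and the median size of the change was 0.13. Fold changes below are on the log2(FPKM + 1) scale, on which changes of genes at low level come out too small.

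Of the 44 members, 32 were tested, and all 32 were at 1 FPKM or more in all 6 libraries, so none entered the test through 1 group alone. There were 11 members past the threshold, 7 higher and 4 lower in the knockdown, 34.4% of those tested against 25.2% of all genes. The pathway genes and the targets differed in this count: 4 of 20 tested pathway genes were called (20%, 3 higher and 1 lower) and 7 of 12 tested targets (58.3%, 4 higher and 3 lower). The median size of the log2 fold change was 0.096 for pathway genes and 0.22 for targets, against 0.13 for all tested genes. The signed medians were 0.04 for pathway genes and 0.13 for targets, and targets were called in both directions. The 3 values of the groups did not overlap for 15 members higher and 6 members lower in the knockdown, against 20.6% and 22.0% of all tested genes and 42.7% in either direction. No test of pathway genes against targets was made.

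**Figure D1:**
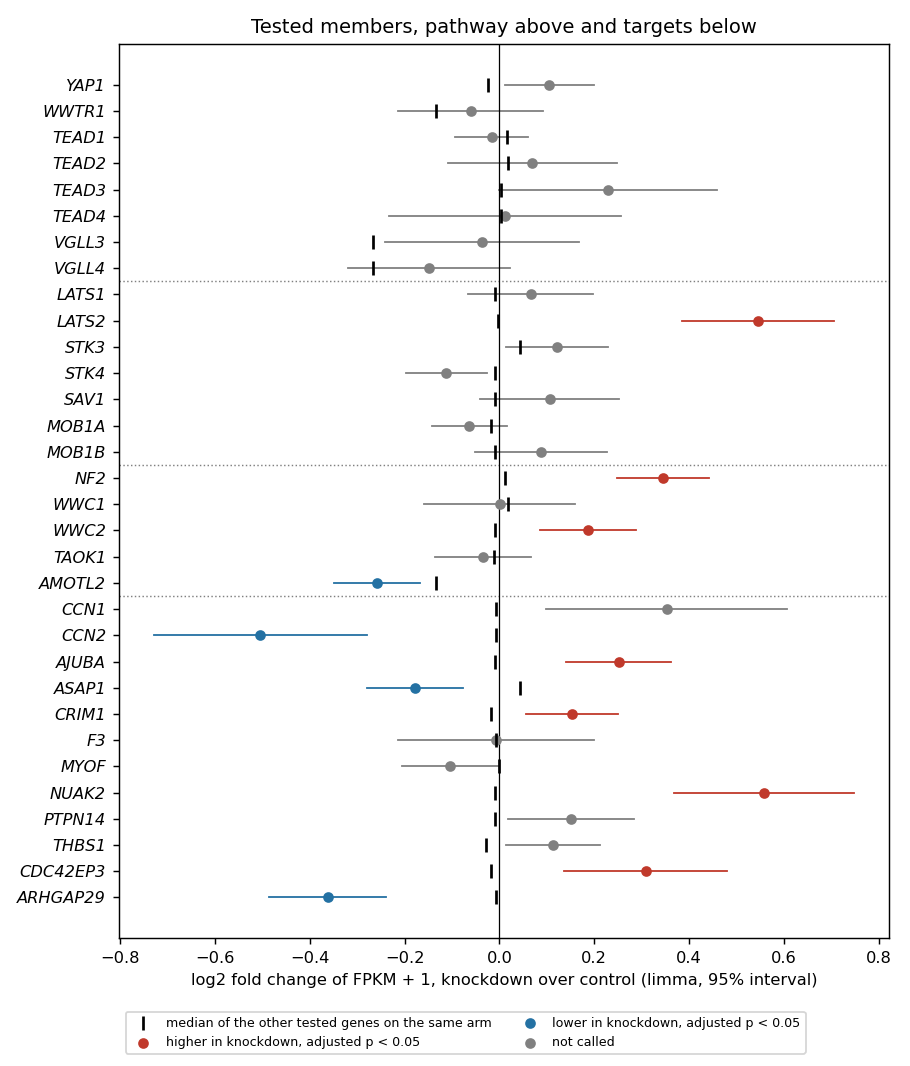
Log2 fold change of FPKM + 1, knockdown over control, with the 95% interval from limma for the 32 tested members, pathway genes above and targets below, and a black tick at the median of the other tested genes on the same chromosome arm. LATS2 and NUAK2 lie farthest to the right, CCN2 and ARHGAP29 farthest to the left, and YAP1, WWTR1 and the TEAD genes are grey, meaning not called.

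Upstream in the pathway, NF2 and WWC2 were higher and AMOTL2 was lower in the knockdown, while WWC1 and TAOK1 were not called. That is 3 of 5 tested genes (60%), against 25.2% of all tested genes, a share that rests on few genes. NF2 encodes merlin, a membrane-associated scaffold that recruits LATS kinases and a tumour suppressor of the liver in mice. NF2 (ENSG00000186575, GRCh38 chromosome 22, 29603556 to 29698598, plus strand) was at 7.93, 7.66 and 8.03 FPKM in knockdown libraries, against 6.05, 5.99 and 5.91 FPKM in controls. The groups were far apart compared with their spread, at 7.87 ± 0.19 FPKM in the knockdown and 5.98 ± 0.069 FPKM in controls (SD, n = 3 each). That is a difference of 31.6%, or 0.35 on the log2 scale (SE 0.041; adjusted p = 0.00196 by limma).

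WWC2 is a KIBRA-family scaffold that, like WWC1, promotes LATS activation. WWC2 (ENSG00000151718, chromosome 4, 183099293 to 183320777, plus strand) was at 12.0, 11.9 and 11.5 FPKM in knockdown libraries, against 10.07, 9.995 and 10.73 FPKM in controls. All knockdown values lay above the controls, by 15.2% on the means (log2 fold change 0.19 with SE 0.042; adjusted p = 0.0197 by limma). The call was lost without knockdown replicate 1 or 2 (limma adjusted p = 0.0692 and 0.0701) and without control replicate 1 or 2 (0.0617 and 0.0554), and 2581 bases of its exons overlap CLDN22, whose reads cannot be told apart from its own here. Its paralogue WWC1 was less abundant and overlapped between groups, at 1.86 ± 0.084 FPKM in the knockdown and 1.86 ± 0.076 FPKM in controls. TAOK1, a kinase that phosphorylates the MST kinases, was at 14.4 to 15.0 FPKM in the knockdown and 14.5 to 15.6 FPKM in controls.

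AMOTL2 was the only pathway gene called lower. It belongs to the angiomotins, junctional proteins that bind YAP and hold it in the cytoplasm, and is itself a known YAP target. AMOTL2 (ENSG00000114019, chromosome 3, 134355874 to 134375479, minus strand) measured 8.65, 8.60 and 8.96 FPKM in knockdown libraries, against 10.9, 10.6 and 10.5 FPKM in controls. The groups did not overlap, with a mean 17.9% lower in the knockdown (log2 fold change -0.26 with SE 0.039; adjusted p = 0.00447 by limma). The other tested genes of its arm, 3q, had a median log2 fold change of -0.13, and the value of AMOTL2 less that median was -0.13; the part of the arm in the result was not tested. The related AMOT and AMOTL1 were nearly silent, with at most 0.025 FPKM for AMOT in the knockdown and 0.019 FPKM in controls, and 0.051 FPKM for AMOTL1 in the knockdown and 0.052 FPKM in controls, and were not tested.

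In the kinase core, LATS2 was higher in the knockdown and the other 6 genes were not called. That is 1 of 7 tested genes (14.3%), against 25.2% of all tested genes. LATS2 (ENSG00000150457, chromosome 13, 20973032 to 21061547, minus strand), a YAP and TAZ kinase that is also a known YAP target, was at 2.48, 2.47 and 2.57 FPKM in knockdown libraries, against 1.49, 1.30 and 1.42 FPKM in controls. These levels rest on an estimated 183 to 194 fragments per knockdown library and 92 to 119 per control library. The means were 2.51 ± 0.052 FPKM in the knockdown and 1.40 ± 0.093 FPKM in controls (SD, n = 3 each), 78.6% apart, or 0.55 on the log2 scale (SE 0.067; adjusted p = 0.00236 by limma). With a pseudocount of 0.1 the log2 fold change was 0.80.

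LATS1, the more abundant of the LATS kinases, was at 5.26, 5.61 and 5.02 FPKM in knockdown libraries, against 4.84, 5.27 and 4.93 FPKM in controls. Its groups overlapped, and its log2 fold change of 0.07 had an interval of -0.07 to 0.20 (limma adjusted p = 0.443). LATS2 made up a larger share of the summed LATS1 and LATS2 level, 32.2 ± 1.62% in the knockdown and 21.9 ± 1.88% in controls. That share was compared after its values were seen, with an exact two-sided permutation p of 0.1, the smallest possible with these libraries.

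The MST kinases stood on opposite sides of no change, and neither was called. STK3 (MST2) was at 5.03, 4.85 and 5.06 FPKM in knockdown libraries, against 4.39, 4.54 and 4.55 FPKM in controls (log2 fold change 0.12, limma adjusted p = 0.0940). STK4 (MST1), the more abundant, was at 14.5, 14.9 and 14.9 FPKM in knockdown libraries, against 16.2, 15.6 and 16.2 FPKM in controls (log2 fold change -0.11, limma adjusted p = 0.0614). Neither pair of groups overlapped. With voom weights on estimated fragments, tried after seeing the data, STK3 passed as higher (limma adjusted p = 0.0491) and STK4 as lower (limma adjusted p = 0.0450). STK3 was 25.3 ± 0.61% of the STK3 and STK4 sum in the knockdown and 21.9 ± 0.63% in controls (exact two-sided permutation p = 0.1, chosen after seeing values). No other p was possible, because all knockdown values of STK3 lay above and those of STK4 below the controls.

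The adaptors moved little. SAV1, the scaffold of the MST kinases, had a log2 fold change of 0.11 (limma adjusted p = 0.262), with 2.42 to 2.71 FPKM in the knockdown and 2.26 to 2.34 FPKM in controls. MOB1A, the more abundant LATS cofactor, had 31.1 to 32.8 FPKM in the knockdown and 33.1 to 33.5 FPKM in controls. Its paralogue MOB1B had 4.633 to 4.830 FPKM in the knockdown and 4.038 to 4.629 FPKM in controls. Groups did not overlap for any of these 3 genes, as for 42.7% of all tested genes, and none passed the threshold.

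**Figure D2:**
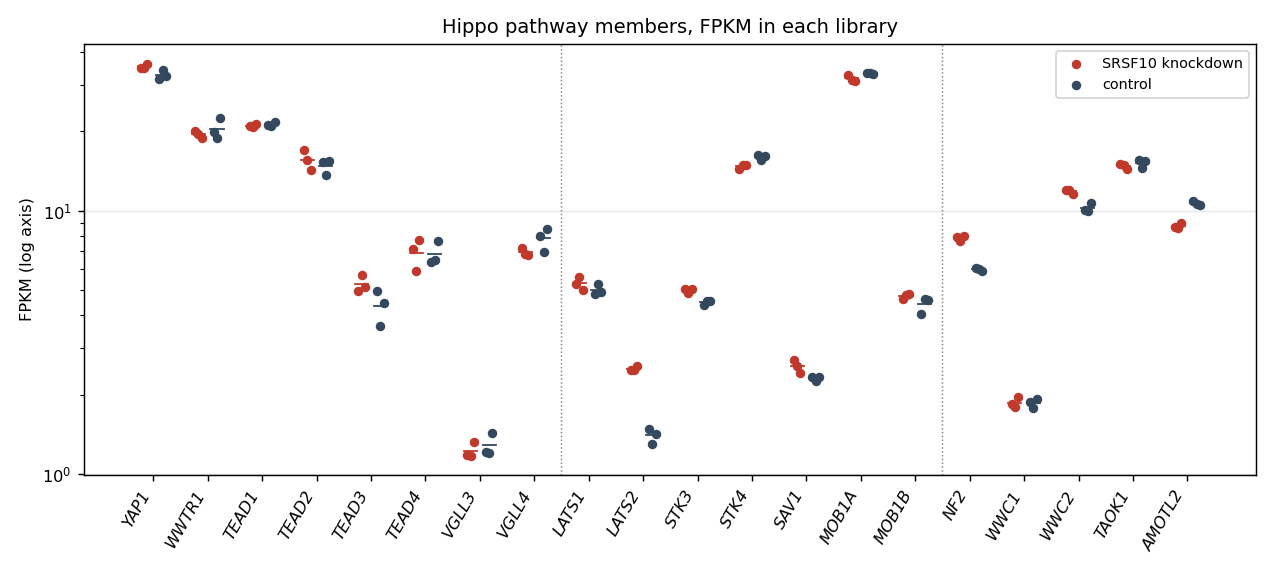
FPKM on a log axis for the 20 tested pathway genes, 1 point per library with a line at the group mean, knockdown left of control for each gene. LATS2 is the gene with the widest gap between groups, at 2.47 to 2.57 FPKM in the knockdown and 1.30 to 1.49 FPKM in controls, while YAP1 and MOB1A are the most abundant.

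At the transcriptional end of the pathway, none of the 8 tested coactivators and TEAD or VGLL factors was called, against 25.2% of all tested genes. With so few genes, that count says little. Their median log2 fold change was -0.0025, against -0.010 for all tested genes. The limma count at an unadjusted p under 0.05 included YAP1 alone, and voom weights called none of the 8. YAP1 was at 34.7, 34.9 and 36.2 FPKM in knockdown libraries, against 31.6, 34.1 and 32.4 FPKM in controls. All knockdown values were the higher ones, by 7.76% on the means, and the log2 fold change of 0.11 had an interval of 0.01 to 0.20 (limma adjusted p = 0.0976).

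WWTR1, the gene of TAZ, was at 20.1, 19.6 and 18.8 FPKM in knockdown libraries, against 19.9, 18.9 and 22.5 FPKM in controls. Its groups overlapped, and its log2 fold change of -0.06 had an interval of -0.21 to 0.09 (limma adjusted p = 0.544). YAP1 and WWTR1 together came to 54.8 ± 0.26 FPKM in the knockdown and 53.2 ± 1.66 FPKM in controls (exact two-sided permutation p = 0.3). WWTR1 lies on 3q, where the median of the other tested genes was -0.13.

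The TEAD proteins carry YAP and TAZ to DNA, and TEAD1 was the most abundant of the family. TEAD1 was at 20.98, 20.73 and 21.29 FPKM in knockdown libraries, against 21.06, 21.04 and 21.64 FPKM in controls (log2 fold change -0.02, interval -0.09 to 0.06). TEAD2 was at 17.0, 15.6 and 14.2 FPKM in knockdown libraries, against 15.3, 13.6 and 15.5 FPKM in controls. These 2 genes overlapped between groups. TEAD3 was at 4.97, 5.69 and 5.14 FPKM in knockdown libraries, against 4.95, 3.66 and 4.48 FPKM in controls, where control replicate 2 was the low one (log2 fold change 0.23, interval -0.00080 to 0.46, limma adjusted p = 0.135). TEAD4 was at 7.13, 5.91 and 7.74 FPKM in knockdown libraries, against 6.36, 6.50 and 7.69 FPKM in controls, with overlap. The summed TEAD level was 48.8 ± 1.15 FPKM in the knockdown and 47.3 ± 2.25 FPKM in controls (exact two-sided permutation p = 0.4).

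The vestigial-like proteins also bind TEADs, and VGLL4 competes with YAP for them. VGLL4 was at 6.78 to 7.23 FPKM in the knockdown and 6.98 to 8.55 FPKM in controls (log2 fold change -0.15, limma adjusted p = 0.182), and it passed as lower only without control replicate 2 (limma adjusted p = 0.0387). VGLL3 was at 1.18 to 1.32 FPKM in the knockdown and 1.20 to 1.44 FPKM in controls. Both lie on 3p, whose other tested genes had a median log2 fold change of -0.27, so that VGLL4 was 0.12 and VGLL3 was 0.23 above that median. VGLL1 was listed at 0 in all libraries.

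**Figure D3:**
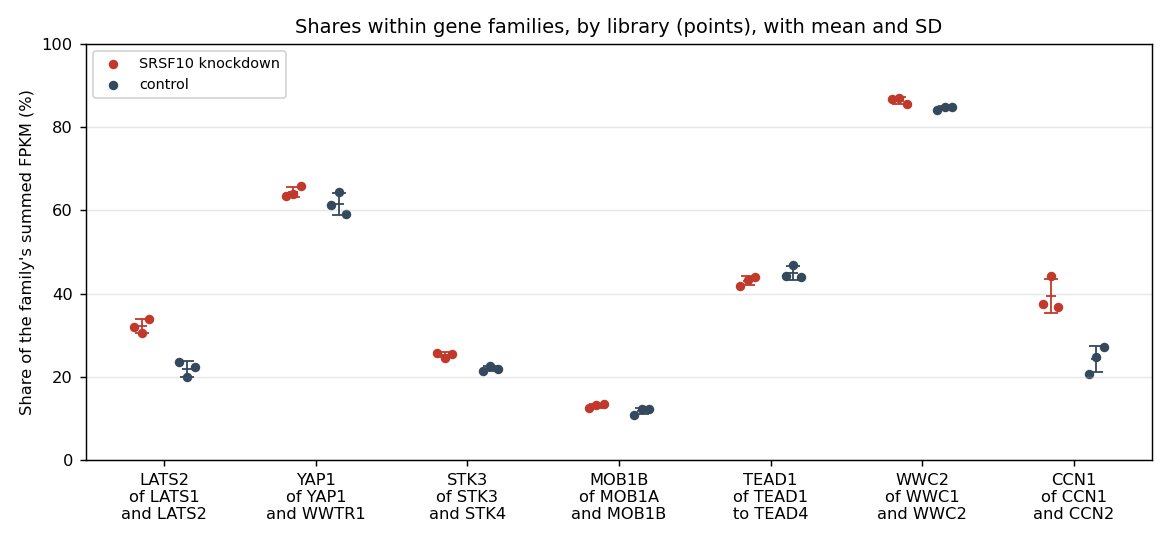
Share of a family's summed FPKM taken by 1 member, in percent, with 1 point per library and the mean and SD, knockdown left of control. The LATS2 share (30.6 to 33.9% in the knockdown, 19.8 to 23.5% in controls) and the CCN1 share (36.8 to 44.2% in the knockdown, 20.8 to 27.1% in controls) have the widest gaps, and the YAP1 shares overlap.

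TEAD proteins recognise the hexamer CATTCC, so the 250 bases before each annotated start of the members, of which a gene can have several, some inside the gene, were searched for it and for its reverse complement GGAATG, on both strands, with overlapping matches counted. The windows are from RefSeq on GRCh38.p14, where 35 of the 44 members had at least 1 window. The other 9 had none and were not searched: CCN1, TEAD1, TEAD4, STK3, ASAP1, CRIM1, ARHGEF17, DLC1 and ADAMTS5. A match was present for 11 of these 35 genes (31.4%), against 14.3% of 27305 genes with a window, and for 4 of 20 pathway genes and 7 of 15 targets. A gene with more windows has more places for a match. Counted by window, 11 of 52 windows of members had a match (21.2%), against 11.9% of all windows. Shown here are the windows of the called members with more than 1 match, which 0.94% of all 35116 windows have; CCN2 was lower and WWC2 and NUAK2 were higher in the knockdown. Capitals mark the matches, and each sequence runs 5′ to 3′ on the strand of its gene, ending at the base before that start.
CCN2, chr6:131951373-131951622, minus strand: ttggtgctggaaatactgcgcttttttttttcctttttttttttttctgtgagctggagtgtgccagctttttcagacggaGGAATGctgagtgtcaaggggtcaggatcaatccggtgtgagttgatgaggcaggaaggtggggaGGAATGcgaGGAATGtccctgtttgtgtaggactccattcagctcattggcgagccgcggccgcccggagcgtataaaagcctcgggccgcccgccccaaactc
WWC2, chr4:183099007-183099256, plus strand: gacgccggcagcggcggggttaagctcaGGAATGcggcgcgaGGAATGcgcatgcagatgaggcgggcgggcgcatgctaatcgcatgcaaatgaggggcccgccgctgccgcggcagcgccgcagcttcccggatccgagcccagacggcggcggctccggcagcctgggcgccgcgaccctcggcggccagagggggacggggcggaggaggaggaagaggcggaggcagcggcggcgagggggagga
NUAK2, chr1:205321746-205321995, minus strand: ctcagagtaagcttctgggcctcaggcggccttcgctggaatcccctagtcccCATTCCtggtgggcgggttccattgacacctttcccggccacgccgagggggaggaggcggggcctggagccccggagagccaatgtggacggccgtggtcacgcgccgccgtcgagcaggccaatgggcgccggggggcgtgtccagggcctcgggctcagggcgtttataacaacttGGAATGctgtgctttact

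The first bases of the 3 matches in the CCN2 window lie 169, 104 and 95 bases before the start, and 0.0826% of all windows hold 3 or more. In the WWC2 window they lie 222 and 208 bases, and in the NUAK2 window 197 and 18 bases, before the start. ANKRD1, which was not tested, also had 2 matches. Single matches were found for YAP1, THBS1, PTPN14, FOXF2 and VGLL1, and for AMOTL2 and AJUBA only before a start inside the gene, not before the outermost one. Of the called members with a window, 3 of 6 higher and 2 of 3 lower ones had a match, against 3 of 17 that were tested and not called. Targets were 7 of all 11 called members and 5 of the 21 tested and not called. A match was present for 46.7% of targets with a window, 20% of such pathway genes and 14.3% of all genes. The contrast by call therefore cannot be told apart from that between targets and pathway genes. A match describes these letters only.

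Among the targets, the matricellular genes CCN1 and CCN2, often read together as YAP and TAZ reporters, lay on opposite sides of no change. CCN2 (CTGF; ENSG00000118523, chromosome 6, 131948176 to 131951373, minus strand) measured 7.09, 5.31 and 6.23 FPKM in knockdown libraries, against 9.01, 9.86 and 8.68 FPKM in controls. All knockdown values were below all controls, with means of 6.21 ± 0.89 FPKM in the knockdown and 9.18 ± 0.61 FPKM in controls (SD, n = 3 each), 32.4% lower in the knockdown. On the log2 scale the change was -0.50 (SE 0.095; adjusted p = 0.0102 by limma).

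CCN1 (CYR61; ENSG00000142871, chromosome 1, 85580761 to 85583962, plus strand) was at 4.24, 4.21 and 3.62 FPKM in knockdown libraries, against 2.36, 3.25 and 3.23 FPKM in controls. Its groups did not overlap either, but in the other direction, with a mean 36.4% higher in the knockdown. The log2 fold change of 0.35 (SE 0.11, interval 0.10 to 0.61) fell just short of the threshold (limma adjusted p = 0.0528), and with voom weights CCN1 passed it (limma adjusted p = 0.0199). These levels rest on an estimated 114 to 146 fragments per knockdown library and 83 to 108 per control library. CCN1 was 39.5 ± 4.13% of the CCN1 and CCN2 sum in the knockdown and 24.2 ± 3.22% in controls. The sum itself was 10.2 ± 0.96 FPKM in the knockdown and 12.1 ± 0.89 FPKM in controls. Both were compared after values were seen, with an exact two-sided permutation p of 0.1 for each, the smallest possible. For the share no other p was possible, because all knockdown values of CCN1 lay above and those of CCN2 below the controls.

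ANKRD1, the third target often read with CCN1 and CCN2, was too low to test. It was at 0.830, 0.928 and 0.752 FPKM in knockdown libraries, against 0.843, 1.91 and 0.933 FPKM in controls, from an estimated 19 to 25 fragments per knockdown library and 24 to 48 per control library. The groups overlapped, and control replicate 2 was the high one.

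The other targets called higher were NUAK2, AJUBA, CDC42EP3 and CRIM1. NUAK2 (ENSG00000163545, chromosome 1, 205302059 to 205321791, minus strand), an AMPK-related kinase, was at 2.39, 1.96 and 2.09 FPKM in knockdown libraries, against 1.12, 1.13 and 1.15 FPKM in controls. It had the largest log2 fold change of the 32 tested members, 0.56 (SE 0.080, limma adjusted p = 0.00395), a mean 89.4% higher in the knockdown, from an estimated 92 to 115 fragments per knockdown library and 50 to 56 per control library. AJUBA (ENSG00000129474, chromosome 14, 22971174 to 22982642, minus strand), a LIM protein that binds and restrains LATS, was at 7.09, 7.25 and 7.64 FPKM in knockdown libraries, against 5.85, 6.19 and 5.93 FPKM in controls. Its mean was 22.3% higher in the knockdown (log2 fold change 0.25 with SE 0.046; adjusted p = 0.00959 by limma).

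CDC42EP3 and CRIM1 were closer to the threshold. CDC42EP3 (ENSG00000163171, chromosome 2, 37641882 to 37738468, minus strand), an effector of the GTPase CDC42, was at 4.71, 4.10 and 4.17 FPKM in knockdown libraries, against 3.15, 3.14 and 3.62 FPKM in controls (log2 fold change 0.31 with SE 0.072; adjusted p = 0.0221 by limma). CRIM1 (ENSG00000150938, chromosome 2, 36355926 to 36551135, plus strand), a transmembrane protein that binds bone morphogenetic proteins, was at 18.9, 18.2 and 19.1 FPKM in knockdown libraries, against 16.5, 16.3 and 17.4 FPKM in controls (log2 fold change 0.15 with SE 0.041; adjusted p = 0.0358 by limma). The groups did not overlap for either gene. CDC42EP3 lost the call without knockdown replicate 1 or 3 or control replicate 1 or 2 (limma adjusted p = 0.0695, 0.0536, 0.0692 and 0.0639). CRIM1 lost it without knockdown replicate 1, 2 or 3 (limma adjusted p = 0.108, 0.0607 and 0.117) and without control replicate 1 or 2 (0.0967 and 0.0906). The targets called higher then numbered 2 without knockdown replicate 1 or 3 or control replicate 1 or 2, and 5 without control replicate 3.

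Besides CCN2, the targets ARHGAP29 and ASAP1 were lower in the knockdown. ARHGAP29 (ENSG00000137962, chromosome 1, 94148988 to 94275068, minus strand), a GTPase-activating protein, was at 4.27, 4.35 and 4.21 FPKM in knockdown libraries, against 5.71, 6.14 and 5.51 FPKM in controls. The mean was 26.1% lower in the knockdown, with a narrow spread there (log2 fold change -0.36 with SE 0.052; adjusted p = 0.00384 by limma). ASAP1 (ENSG00000153317, chromosome 8, 130052104 to 130443660, minus strand), a GTPase-activating protein for ARF proteins, was at 35.5, 33.9 and 34.4 FPKM in knockdown libraries, against 39.0, 37.6 and 41.3 FPKM in controls. Its mean was 12.0% lower in the knockdown (log2 fold change -0.18 with SE 0.043; adjusted p = 0.0240 by limma). Without knockdown replicate 2 or 3 or control replicate 1 the call was lost (limma adjusted p = 0.0839, 0.0785 and 0.0585), which left 2 lower targets without knockdown replicate 2 or 3.

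Besides CCN1, 4 tested targets were not called. MYOF, a membrane-repair protein and the most abundant of the set, was at 83.2 to 86.1 FPKM in the knockdown and 86.0 to 94.8 FPKM in controls (log2 fold change -0.10, limma adjusted p = 0.122). THBS1, the matricellular protein thrombospondin-1, was at 24.8 to 25.9 FPKM in the knockdown and 22.5 to 24.5 FPKM in controls (log2 fold change 0.11, limma adjusted p = 0.0954). Leaving out 1 library made a call of each: MYOF passed as lower without control replicate 1 (limma adjusted p = 0.0496) and THBS1 as higher without control replicate 3 (0.0437). PTPN14, a phosphatase that binds YAP, was at 3.74 to 4.14 FPKM in the knockdown and 3.33 to 3.59 FPKM in controls (log2 fold change 0.15, limma adjusted p = 0.0940; 0.0168 with voom weights). F3, tissue factor, was at 10.4 to 12.2 FPKM in the knockdown and 10.6 to 12.9 FPKM in controls, with overlap.

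**Figure D4:**
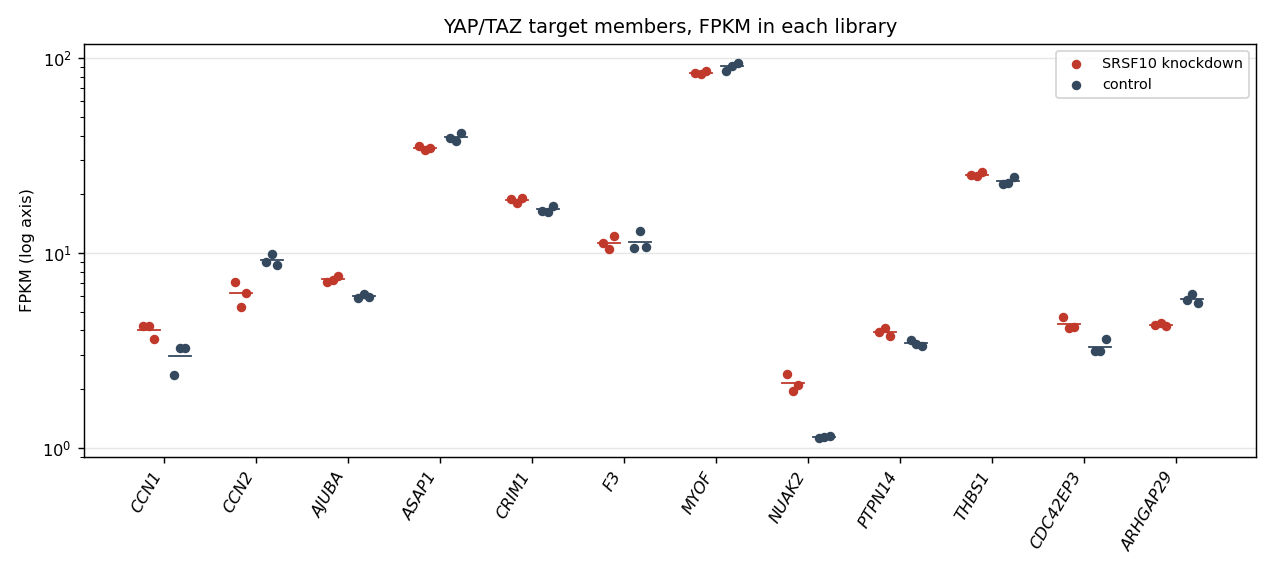
FPKM on a log axis for the 12 tested targets, 1 point per library with a line at the group mean, knockdown left of control. CCN1 is higher and CCN2 lower in every knockdown library than in every control, and NUAK2 shows the widest gap, at 1.96 to 2.39 FPKM in the knockdown and 1.12 to 1.15 FPKM in controls.

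The remaining 8 targets were below the level needed for a test. DLC1, a GTPase-activating protein, and the protease ADAMTS5 were listed at 0 in all 6 libraries. At these depths 3 fragments would correspond to at most 0.0185 FPKM for DLC1 and 0.0261 FPKM for ADAMTS5. FJX1 was at 0.550 to 0.781 FPKM in the knockdown and 0.752 to 0.983 FPKM in controls. GADD45G, a stress-response gene, was at 0.594 to 0.769 FPKM in the knockdown and 0.416 to 0.837 FPKM in controls. TGFB1I1, a focal adhesion adaptor, was at 0.598 to 0.806 FPKM in the knockdown and 0.539 to 0.747 FPKM in controls. These 3 genes overlapped between groups. ARHGEF17, a guanine nucleotide exchange factor, had at most 0.071 FPKM in the knockdown and 0.11 FPKM in controls, and the forkhead factor FOXF2 at most 0.087 FPKM in the knockdown and 0.064 FPKM in controls. RBMS3, an RNA-binding protein, had an estimated 3 to 4 fragments per knockdown library and 0 to 1 per control library, too few for a comparison.

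Wider lists of pathway and target genes, also drawn up with earlier results of these data known, were read in the same fit. Of 53 other Hippo genes, 42 were tested, and 8 were higher and 4 lower (28.6% called, against 25.2% of all tested genes; median log2 fold change 0.01), a share near that of all genes. KIRREL1, an adhesion protein that binds SAV1, was at 41.4 ± 0.95 FPKM in the knockdown and 29.4 ± 1.43 FPKM in controls (log2 fold change 0.48, limma adjusted p = 0.000867). Of the 14-3-3 proteins, which bind phosphorylated YAP, YWHAH was at 37.9 ± 1.21 FPKM in the knockdown and 46.5 ± 2.92 FPKM in controls (limma adjusted p = 0.00897), and YWHAZ at 271.5 ± 3.78 FPKM in the knockdown and 240.4 ± 8.76 FPKM in controls (limma adjusted p = 0.0145). The polarity gene LLGL1 (log2 fold change 0.32) and RASSF4 (0.49) were higher, the last with every control under 1 FPKM, so that it entered the test through the knockdown alone. Leaving out knockdown replicate 1, 2 or 3 left 1, 4 and 3 higher and 1, 2 and 2 lower genes of this list, and leaving out control replicate 1 or 2 left 4 and 5 higher and 1 and 2 lower.

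STRIPAK is a phosphatase complex that dephosphorylates the MST kinases, and 15 of its 17 listed genes were tested, with 3 higher and 2 lower (33.3% called, against 25.2% of all tested genes; median log2 fold change 0.03). STRIP2 was at 16.0 ± 0.90 FPKM in the knockdown and 11.1 ± 0.86 FPKM in controls (log2 fold change 0.49, limma adjusted p = 0.00291). The phosphatase subunit PPP2CB (0.19) and FGFR1OP2 (0.22) were also higher on the log2 scale. PDCD10 (-0.23) and SLMAP (-0.17), which bridges the complex to the MST kinases, were lower, and both lie on chromosome 3. Less the median of the other tested genes of its arm, PDCD10 was at -0.097 on 3q and SLMAP at 0.097 on 3p, so that SLMAP fell less than its arm; the part of the arm was not tested. The higher genes numbered 1 without knockdown replicate 1, 2 or 3 or control replicate 1 or 3, and the lower genes 1 without knockdown replicate 2 or 3.

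The list of 50 other YAP and TAZ targets had a larger share called than the pathway lists. Of 40 tested, 19 were higher and 7 lower in the knockdown (65%), against 25.2% of all tested genes, with a median log2 fold change of 0.20 against -0.010; the list is not independent of earlier results of these data. DDAH1, an enzyme that breaks down methylarginines, was at 4.87 ± 0.20 FPKM in the knockdown and 1.86 ± 0.27 FPKM in controls (log2 fold change 1.04). The receptor kinase AXL (0.96), the ectonucleotidase NT5E (0.98), the myelin protein gene PMP22 (0.51) and the growth factor TGFB2 (0.40) were also higher on the log2 scale. TOP2A, a topoisomerase of dividing cells, was lower, at 87.2 ± 1.35 FPKM in the knockdown and 105.4 ± 2.70 FPKM in controls (log2 fold change -0.27, limma adjusted p = 0.00214). IGFBP3 was not called, at 2.61, 4.13 and 3.15 FPKM in knockdown libraries, against 2.57, 2.39 and 1.23 FPKM in controls (limma adjusted p = 0.124). The lower genes of this list numbered 3 without knockdown replicate 2 or 3 and 4 without control replicate 1.

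**Figure D5:**
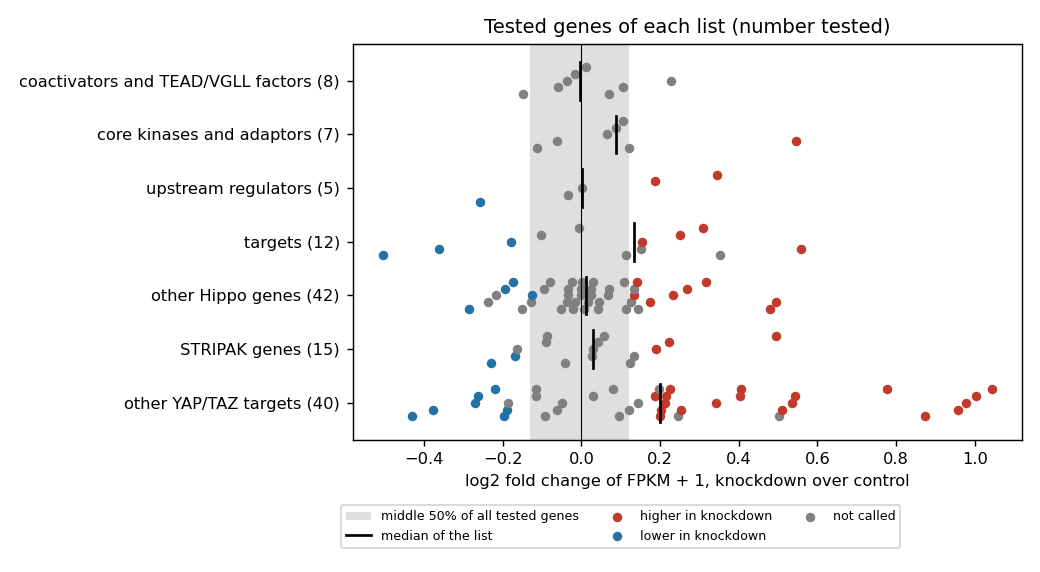
Log2 fold change of FPKM + 1, knockdown over control, for the tested genes of each list, 1 point per gene with a bar at the list's median, over a grey band for the middle 50% of all tested genes (-0.13 to 0.12). The coactivators and TEAD or VGLL factors lie mostly within the band, and the other YAP and TAZ targets reach 1.04, with a median of 0.20.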

How the data were processed

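The authors deposited FPKM values per gene, per the file headers and names, in 1 table of the whole series and 1 file per sample, with identical values. Per the labels' protocols, TRIzol was used for total RNA, a Vazyme VAHTS V6 kit for the libraries and an Illumina NovaSeq instrument for sequencing. Per the submitters' processing notes, the tools included FastQC 0.11.9 and Trim Galore 0.6.5-1, and the genome build was GRCh38. Not given in the sources used here are the aligner, the gene annotation, the counting program and whether strand was used. Exons of 23 members overlap exons of another gene, and their reads cannot be told apart.

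Genes with at least 1 FPKM in at least 3 of 6 libraries were fitted on log2(FPKM + 1) with limma 3.58.1 (R 4.3.3), a trend of variance with level and no term but the group. P-values were adjusted over all tested genes after Benjamini and Hochberg, with a threshold of 0.05. No set test was run. The members and lists were chosen with earlier results of these data known. Members called in this fit are given in full, with SRSF10, YAP1, WWTR1, TEAD1 to TEAD4, LATS1, LATS2, STK3, STK4, NF2, CCN1, CCN2 and ANKRD1 called or not. From each further list up to 5 called genes with the smallest adjusted p are named, plus AXL, NT5E, TGFB2 and IGFBP3; 1 gene that the rule takes is not reported here. PALS1, of the list of other Hippo genes, was not found by symbol. Comparisons of shares within families were chosen after values were seen.

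Positions and exon lengths are from GENCODE 29, where 58516 of the 60623 genes were found. Depth was estimated as the value that makes low FPKM, times exon length, whole fragments: 87.8% to 88.4% of values of up to 6.5 fragments came within 0.05 of a whole number. Of values of 100 to 500 fragments, 49.4% to 50.2% came that close. Fragment numbers are therefore estimates. The fit was also run on simulated fragments whose spread between libraries was set in advance, not taken from these data. That run does not measure how often calls here are wrong. Across tested genes, which are not independent replicates, Pearson's r was 0.986 to 0.988 for libraries of 1 group and 0.971 to 0.976 for libraries of different groups. Alternatives were no filter, a 5 FPKM filter, a pseudocount of 0.1, median-of-ratios scaling, the replicate number as a block, no trend, each library left out and, added after seeing the data, voom weights on estimated fragments. Python 3.11.15, pandas 2.3.3, SciPy 1.17.1 and matplotlib 3.10.9 were used.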

Additional observations from a re-analysis of the deposited data

How the results depend on the processing

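With these 6 libraries, 7 of the 11 called members (LATS2, NF2, AMOTL2, CCN2, AJUBA, NUAK2 and ARHGAP29) were called in every fit that tested them; LATS2, NUAK2 and CDC42EP3 were not tested with the 5 FPKM filter. Same-numbered libraries of the groups had little in common: their deviations from the group means correlated at 0.016, 0.057 and -0.071. The labels do not say whether same-numbered libraries were prepared together. With the replicate number as a block, 1193 genes were higher and 1146 lower, WWC2, CRIM1 and CDC42EP3 lost the call (limma adjusted p = 0.0616, 0.0574 and 0.0526), and the targets called higher numbered 2, other Hippo genes called lower 1 and STRIPAK genes called lower 1. With no filter, 1013 genes in all were lower, and ASAP1, CRIM1 and CDC42EP3 lost the call. There, targets called higher numbered 2, other Hippo genes 3 higher and 1 lower, STRIPAK genes called higher 1 and other targets called lower 3. With the 5 FPKM filter, targets called higher numbered 2 and other Hippo genes called higher 5. Without the trend CRIM1 lost the call, other Hippo genes called lower numbered 2 and STRIPAK genes called higher 1. With voom weights, pathway genes called lower numbered 2 and other Hippo genes called lower 7. The causes were not tested.

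Leaving out 1 library at a time gave 894 to 1352 higher and 964 to 1327 lower genes in all. Called pathway genes ranged from 2 to 3 higher and 1 to 2 lower, targets from 2 to 5 higher and 2 to 3 lower, other Hippo genes from 1 to 8 higher and 1 to 4 lower, STRIPAK genes from 1 to 2 in each direction, and other targets from 14 to 17 higher and 3 to 7 lower. Members not called that changed sign were WWC1 (-0.0022 with median-of-ratios scaling, -0.0029 with voom weights, -0.023 to 0.018 without 1 library) and, without 1 library, WWTR1 (-0.11 to 0.0069), VGLL3 (-0.067 to 0.0098), TEAD4 (-0.063 to 0.11) and F3 (-0.059 to 0.080). Precision is limited for members of low level: 9 members had under 10 estimated fragments in at least 1 library.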
